A study of Rattus norvegicus with 4 samples.

Results

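The mRNAs of 9 neuronal regulators of RNA and of transcription were followed through the removal of neurons from co-cultures with astrocytes. They were the RNA-binding proteins Elavl2, Elavl3, Elavl4, Brunol4 (now named Celf4) and Nova1, and the transcription factors Bcl11b, Neurod1, Neurod2 and Tbr1. Members were found by the gene name of a probe or by a RefSeq transcript of the gene. By this rule 8 of the 9 genes had 14 probes among the 41012 on the array. Tbr1 had none by the rule and was reached through 2 probes whose description gives its Gene ID. The genes were chosen by measured values of these same arrays, namely the share of signal left after neuron removal and the detection in astrocytes alone. Their values in the comparisons below are therefore a description and carry no test.

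Astrocytes came from the cortex of Wistar rat pups (postnatal day 1), and neurons from hippocampi of mouse embryos (day 18). Co-culture RNA (CC) held both cell types. In CC-CJ, the neurons had been washed off with a jet of ice-cold buffer applied 3 times (cold jet) before RNA was collected. AA-CJ was RNA of astrocytes kept without neurons and given the same cold jet. CC-CJ against CC asks how much neuronal mRNA the jet removed, and CC-CJ against AA-CJ compares astrocytes cultured with and without neurons. Each of the 4 arrays carried CC-CJ in Cy3, against CC in Cy5 on 2 arrays and against AA-CJ in Cy5 on the other two. The labels describe 2 biological replicates of each condition. Each replicate was a pool, and dyes were not swapped. The probes were designed on the rat genome while the neuronal mRNA was from mouse, so a weak signal may mean a poor match as well as little RNA. Less signal in CC-CJ can come from fewer neurons or from less RNA per neuron, and these cannot be told apart here.

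Elavl proteins bind AU-rich stretches of mRNA and affect its splicing, stability and translation. Celf4 and Nova1 also bind RNA, and Nova1 regulates alternative splicing in neurons. Neurod1 and Neurod2 are basic helix-loop-helix factors that bind the E-box and drive neuronal differentiation. Bcl11b (Ctip2) is a zinc finger factor of deep-layer cortical and hippocampal neurons, and Tbr1 is a T-box factor of glutamatergic cortical neurons.

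RefSeq promoters were found for 7 of the 9 genes, and not for Brunol4 and Bcl11b. E-boxes are shown because Neurod1 and Neurod2, which bind them, are members themselves. Each sequence below is from the rat genome (GRCr8), is 30 bases long and runs 5′ to 3′ on the strand of the gene, with the match to CAGNTG on either strand in capitals. It shows the match nearest the start, with 12 bases on each side.
Elavl2, chr5:111202303-111202332 (minus strand): actctggcagagCAGCTGcacacacggcag
Elavl3, chr8:28859174-28859203 (minus strand): gctccctccatcCACCTGccgccaggggtc
Elavl4, chr5:130367769-130367798 (minus strand): cgttgagatgggCAGTTGtgtttctgggga
Nova1, chr6:69632575-69632604 (minus strand): gacactgcactgCAGCTGctccgcgccctg
Neurod1, chr3:84770488-84770517 (minus strand): gctcagcctcagCAACTGggctatataacc
Neurod2, chr10:83824378-83824407 (minus strand): agtagagagtgaCAGATGgcggcgggtccc
Tbr1, chr3:66759745-66759774 (plus strand): gcgaccaggagcCAGGTGattatcctaatt

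All 7 of these promoters held at least 1 such match in the 250 bases before the start, against 43.3% of 33469 rat promoters of the same length. The wider motif CANNTG, which includes it, was also in all 7 and in 65.5% of all promoters. A match describes letters in the rat promoter only. The arrays read neither binding nor the mouse promoters.

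The label of the groups was checked on markers. Of 10 neuronal markers, cold jet lowered 5 at an adjusted p under 0.05 (limma), led by Dcx with M of -3.70 and Gap43 with -2.76. Stmn2, bright in CC at 12.57, did not fall (M -0.07 and 0.07) and was well above background in AA-CJ. Syt1, Map2, Syn1 and Nefm, with M from -0.23 to -0.48, did not pass either. M is log2 of CC-CJ over the other RNA. None of 9 astrocyte markers passed against CC, and their M lay between -0.16 and 0.15. Against AA-CJ, Gap43 (M 2.10 and 1.96, adjusted p 0.000335) and Dcx (1.14 and 0.60, adjusted p 0.0275) of the neuronal markers were higher in CC-CJ. The median of the 10 was 0.07, and 4 were below 0. The astrocyte marker Aqp4 was higher too (M 0.56 and 0.46, adjusted p 0.0309). It passed in 7 of 14 alternative settings and turned to -0.07 with median centring. Among 3 tested microglial markers Aif1 was lower (M -0.53, adjusted p 0.0434), and among 7 of the oligodendrocyte lineage Sox10 was lower (M -1.12, adjusted p 0.0331). Both calls were lost without CC replicate 2 (adjusted p 0.378 for Aif1, and 0.0789 with M of -0.68 for Sox10), and that of Aif1 also without CC replicate 1 (0.104), where M of Sox10 was -1.56. On the CC arrays, CC-CJ was well above background for Aif1 on neither and for Sox10 on 1 of 2. Aif1 and the neuronal marker Snap25 were well above background in CC alone, so they entered the test only through the group where they were high. The part of such cells in the values of the members was not tested. Between 50.1% and 62.6% of probes per channel were well above background.

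In all, 7 of the 9 genes gave a signal well above background in CC on both arrays, as the plot of probe signals shows. Nova1 and Tbr1 did not. Their 5 probes lay between 5.91 and 6.32 on the log2 scale in every channel, close to the lowest values that the processing can give, and no share can be computed for them. Here and below, a signal called at background was not flagged by the scanner software as well above it. The other 7 genes were higher in CC than in CC-CJ, by amounts that ranged widely. In AA-CJ both probes of Brunol4 and 1 of Elavl2 were well above background on both arrays, and Neurod2 on 1. The remaining genes were at background there.

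**Figure D1:**
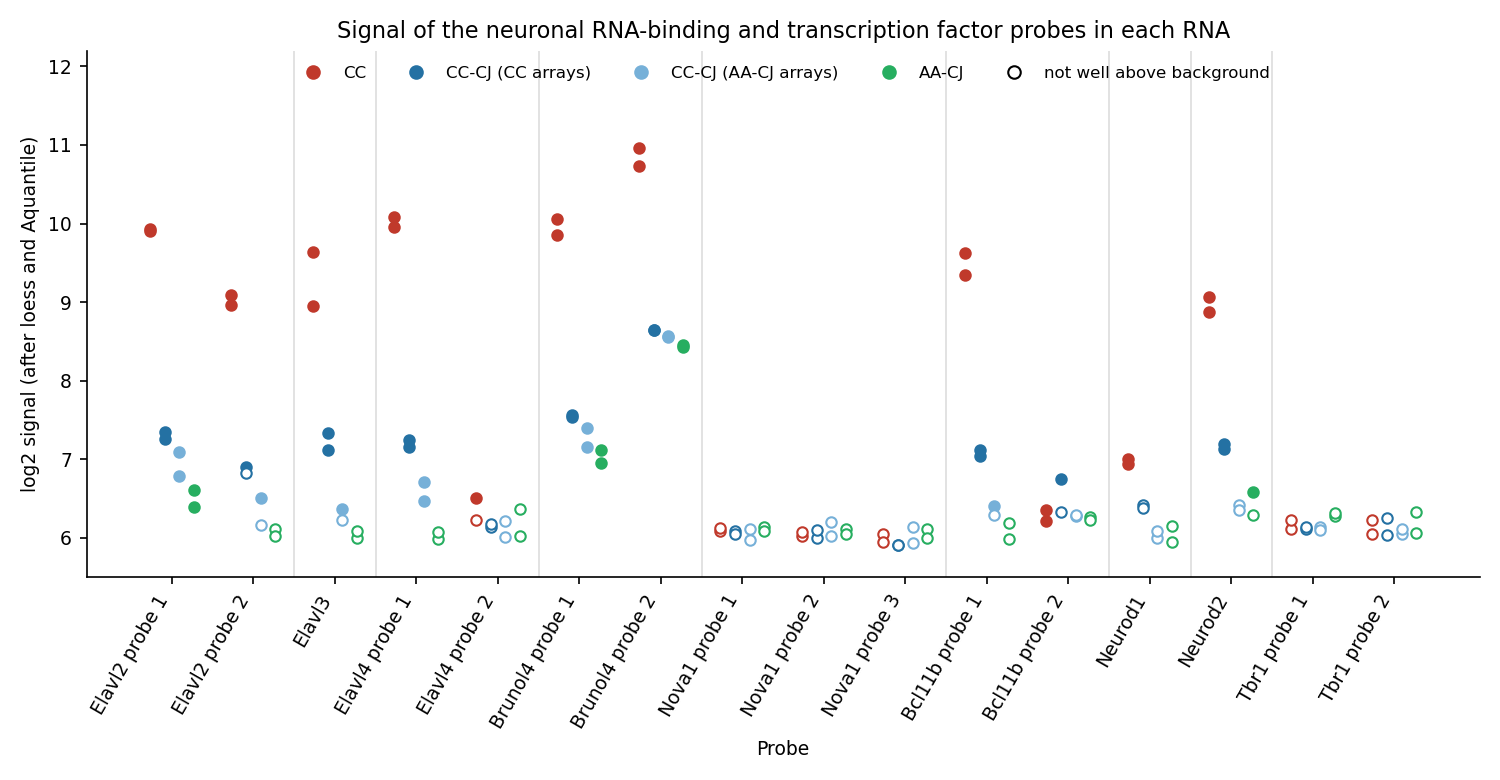
Log2 signal after normalization (vertical axis) for each probe of the 9 genes (horizontal axis). Each point is 1 array, red for CC, dark blue for CC-CJ on the arrays against CC, light blue for CC-CJ on the arrays against AA-CJ and green for AA-CJ, and open points were not well above background. In 9 probes of 7 genes the CC points stand apart above all others, while Nova1 and Tbr1 stay at the floor near 6.

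Among the RNA-binding proteins, Elavl4 had the largest fall. Its bright probe (rn4 chr5:131672026-131672085) read 9.96 and 10.08 in CC, 7.24 and 7.15 in CC-CJ on the same arrays, and 5.98 and 6.07 in AA-CJ. The groups did not overlap, and AA-CJ stayed at background. On the arrays with AA-CJ, CC-CJ was lower, at 6.71 and 6.47. M against CC was -2.72 and -2.93, a 7.08-fold lower mean (log2 -2.82, SE 0.109). The second probe (chr5:131732813-131732872) was well above background only in CC replicate 2, at 6.51, and was left out of the gene's value. A further probe described as similar to Elavl4, outside the rule, read 6.62 and 6.83 in CC and stayed at background in the other RNAs.

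Elavl2 was read by 2 probes that moved alike. The first (chr5:111179274-111179333) read 9.91 and 9.93 in CC, 7.35 and 7.25 in CC-CJ, with 6.39 and 6.61 for AA-CJ. The second (chr5:111178852-111178896) read 9.09 and 8.96 in CC, 6.90 and 6.82 in CC-CJ, with 6.11 and 6.02 for AA-CJ. Both fell, and their order from CC to CC-CJ to AA-CJ was the same. The mean of both gave M of -2.38 and -2.42, or 5.27-fold lower in CC-CJ (log2 -2.40, SE 0.108). AA-CJ was well above background on both arrays at the first probe and on none at the second.

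Elavl3 had 1 probe (chr8:21124306-21124365), with 8.95 and 9.64 in CC, 7.12 and 7.33 in CC-CJ, with 6.0 and 6.09 for AA-CJ. Its replicates differed most: M was -1.84 and -2.31, on average 4.21-fold lower (log2 -2.07, SE 0.130). The 3 RNAs still did not overlap. On the arrays with AA-CJ, however, CC-CJ read only 6.37 and 6.22, the latter at background. AA-CJ stayed at background.

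Brunol4, the other RNA-binding member with signal, was the only one with both probes well above background in every channel. The first (chr18:17348669-17348728) read 9.85 and 10.06 in CC, 7.56 and 7.53 in CC-CJ, with 7.12 and 6.95 for AA-CJ. The second (chr18:17348277-17348336) read 10.73 and 10.96, then 8.64 and 8.65, then 8.45 and 8.43. The order was thus CC, CC-CJ, AA-CJ at both, with a narrow step between CC-CJ and AA-CJ. M against CC was -2.19 and -2.42, 4.94-fold lower (log2 -2.30, SE 0.0898). Astrocytes cultured alone thus gave clear signal for this gene.

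Of the transcription factors, Neurod2 (chr10:87097969-87098028) read 9.06 and 8.87 in CC, 7.19 and 7.13 in CC-CJ, with 6.29 and 6.58 for AA-CJ. AA-CJ was well above background in replicate 2 only. M was -1.87 and -1.74, 3.49-fold lower in CC-CJ (log2 -1.80, SE 0.108). Neurod1 (chr3:62225107-62225166) was dim even in CC, at 7.00 and 6.94, and at background after cold jet (6.42 and 6.38) and in astrocytes alone (5.94 and 6.15). Its CC signal was at least 1.49-fold above CC-CJ.

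The 2 probes of Bcl11b disagreed. The bright one (chr6:132294349-132294408) read 9.34 and 9.62 in CC, 7.11 and 7.04 in CC-CJ, with 5.98 and 6.19 for AA-CJ at background. M against CC was -2.23 and -2.58. The other (chr6:132370182-132370241) stayed between 6.21 and 6.75 in all RNAs, with M of -0.02 and 0.54. The gene mean of both, -1.07 (SE 0.0851), therefore mixes a clear fall with a probe near background. At the brighter probe alone the mean was -2.41 (SE 0.121).

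For the 7 genes in the fit, M against CC was below 0 on both arrays in 7 and below -1 on both arrays in 6, Neurod1 being the exception. Over all genes, 38.4% were below 0 and 0.562% below -1 on both arrays, and at an adjusted p under 0.05, 2.27% were lower and 0.0983% higher after cold jet. Since this comparison chose the members, nothing is read from the difference. The median M of the members was -2.07, against -0.024 for all genes tested.

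Against AA-CJ, the sizes depended on the processing. After loess, M on the 2 arrays was 0.73 and 0.40 for Elavl4, 0.54 and 0.16 for Elavl2, 0.37 and 0.12 for Elavl3, and 0.19 and 0.18 for Brunol4. It was 0.22 and 0.08 for Bcl11b, 0.05 and -0.06 for Neurod1, and 0.14 and -0.23 for Neurod2. So 5 of 7 genes, the 4 RNA-binding proteins and Bcl11b, were above 0 on both arrays. Over all genes, 29.4% were above 0 on both. The median was 0.18, with -0.016 over all genes, of which 1.95% were higher and 1.18% lower in CC-CJ at an adjusted p under 0.05. With processed signals M was 2.76 for Elavl4, 2.03 for Elavl2 and 1.86 for Elavl3, and with plain background subtraction 2.05, 1.07 and 1.23. With median centring in place of loess the value of Brunol4 turned to -0.42, and those of Neurod1 and Neurod2 were 0.41 and 0.09. On these arrays CC-CJ was at background on both for Neurod1 and Neurod2, and on 1 of 2 for Elavl3 and Bcl11b. AA-CJ was at background on both arrays for Elavl3, Elavl4, Bcl11b and Neurod1. M of Neurod1 thus sets background against background. For Elavl3, Elavl4 and Bcl11b the log2 differences may understate a difference in RNA. This was not tested.

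CC and AA-CJ were never on the same array and were compared through CC-CJ, which both comparisons share. On the log2 scale CC was above AA-CJ by 3.39 for Elavl4, 2.75 for Elavl2, 2.49 for Brunol4 and 2.32 for Elavl3. The transcription factors followed with 1.76 for Neurod2, 1.22 for Bcl11b and 0.57 for Neurod1. The order was not stable. At its bright probe alone Bcl11b stood at 2.67, above Brunol4 and Elavl3, and with processed signals Neurod1 (3.50) and Neurod2 (3.18) lay above Brunol4 (3.17). AA-CJ was at background for Elavl3, Elavl4, Bcl11b and Neurod1, so these values are set against a background signal. Compared by level across arrays, CC lay further above AA-CJ (for Elavl4 at least 15.1-fold, beside 10.5-fold through CC-CJ), since the CC-CJ signal differed between the 2 kinds of array. The median was 2.32, with 0.002 over all genes, of which 2.59% were higher and 0.0796% lower in CC at an adjusted p under 0.05.

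The share of the CC signal left after cold jet was computed on the linear scale as CC-CJ minus AA-CJ, over CC minus AA-CJ, with the CC-CJ signal of the arrays against CC. It was 4.53% and 4.55% for Brunol4, the lowest, 9.44% and 7.39% for Elavl4, and 9.54% and 7.79% for Elavl2. Elavl3 kept 17.3% and 12.7%. Among the transcription factors, Bcl11b kept 13.3% and 12.8% (12.8% and 8.22% at its bright probe alone), and Neurod2 15.0% and 12.0%. For Neurod1 the calculation gave 35.8% and 22.9%, but CC-CJ and AA-CJ were at background and CC was 1.48-fold above AA-CJ, so it is not ranked. The ranges of the 2 experiments of Elavl2 and Elavl4 overlap each other, and so do those of Elavl3, Bcl11b and Neurod2. At its bright probe alone, the range of Bcl11b overlaps those of Elavl2 and Elavl4 too. Brunol4 lay below these after loess. When the CC-CJ signal was taken from the arrays against AA-CJ, Neurod2 (-1.01%) lay below Brunol4 (2.39%). For Brunol4 the subtracted AA-CJ signal was close to that of CC-CJ (8.45 and 8.43 beside 8.64 and 8.65 at 1 probe). With median centring its share was -6.15%, a value that no true share can take, so its low share depends on the processing.

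Over the 6 genes at least 2-fold higher in CC than in AA-CJ the median was 10.9%, and with Neurod1 it was 13.1%. It was 8.54% for the 4 RNA-binding proteins and 13.3% for Bcl11b and Neurod2, with the probe of Bcl11b near background included. Beside this, 4 neuronal markers with that difference had a median of 11.0%. All 285 such genes had a median of 24.3%, and their middle range ran from 13.4% to 46.7%. Since this share chose the members, nothing is read from their lower median.

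**Figure D2:**
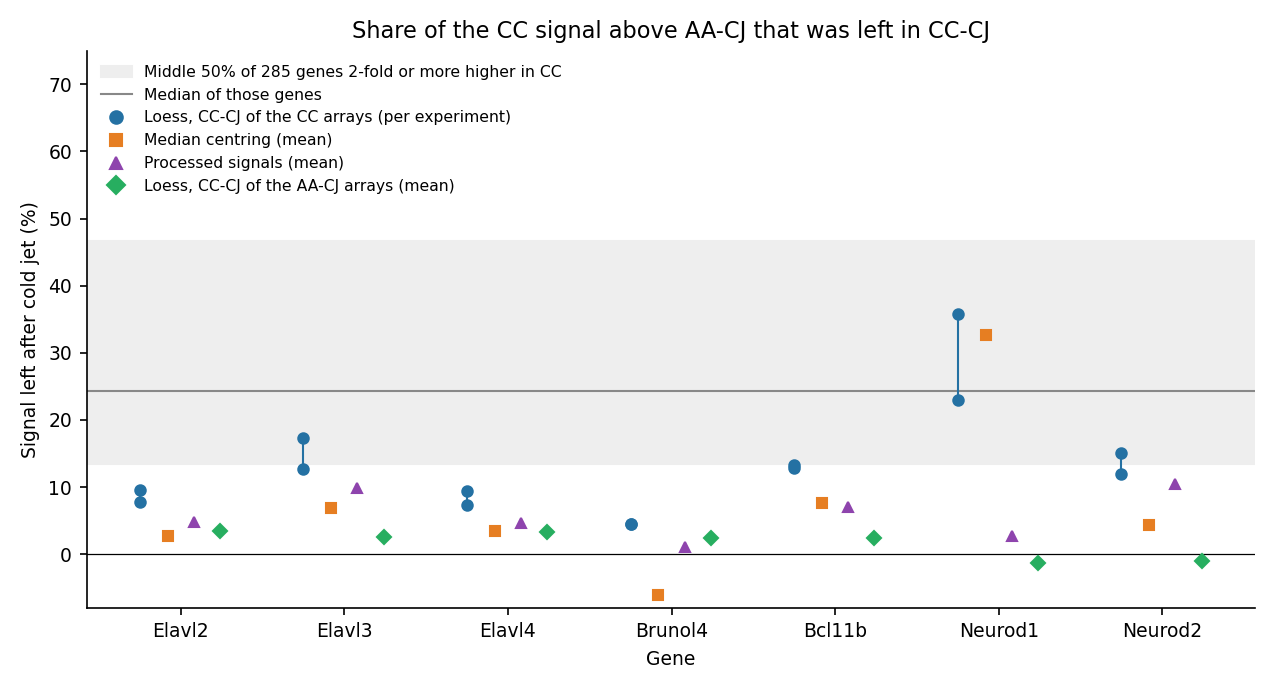
Percent of the CC signal above AA-CJ that remained in CC-CJ (vertical axis) for the 7 genes with a value (horizontal axis). Blue points joined by a line are the 2 experiments after loess, orange squares, purple triangles and green diamonds are means under other processing, and the grey band and line are the quartiles (13.4% to 46.7%) and the median (24.3%) of 285 genes higher in CC. The blue points of 6 genes lie between 4.53% and 17.3%, where their other symbols lie lower, and Neurod1 rests on background signals. The members were chosen by this share.

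The size of this share depended on the normalization. Over all 7 genes the median was 4.30% with median centring and 4.86% with the processed signals of the scanner software. It was 2.47% when the CC-CJ signal was taken from the arrays against AA-CJ instead, a choice made after the values were seen. On those arrays the CC-CJ signal was lower for all 7 genes, without overlap with the arrays against CC. For Elavl3 it was 6.37 and 6.22, compared with 7.12 and 7.33, and for Neurod2 6.42 and 6.35, compared with 7.19 and 7.13.

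The gap had a median of 0.52 on the log2 scale (0.13 for Brunol4 to 0.93 for Elavl3), beside 0.17 in 360 other genes at least 2-fold higher in CC than in AA-CJ by their level and -0.035 over all genes. Of all genes, 7.80% were higher on the CC arrays without overlap. Without normalization within arrays the median gap of the members was 0.02, beside -0.116 over all genes, and 3 of 7 did not overlap, beside 1.39% of all genes. With the processed signals it was 0.44, beside -0.176, and 4 of 7 did not overlap, beside 3.03%. CC-CJ was in Cy3 on all arrays. The cause of the gap was not tested.

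**Figure D3:**
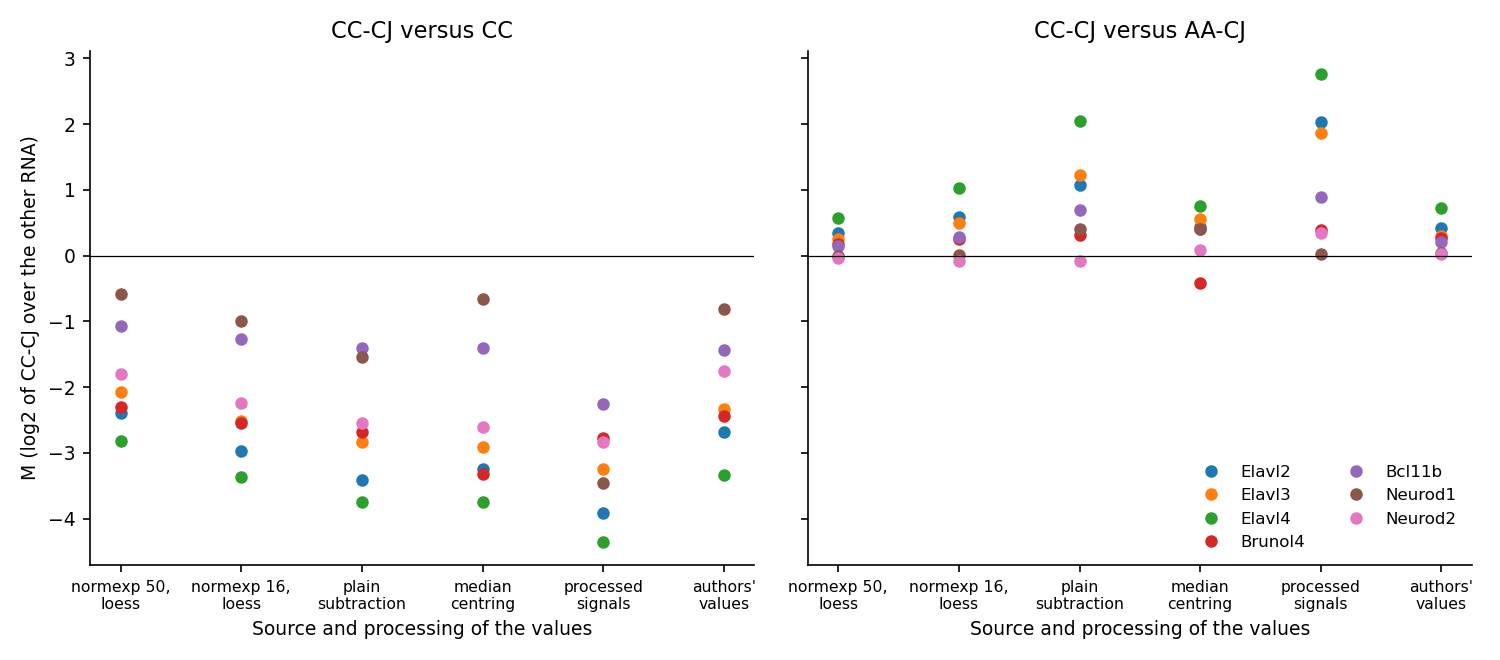
M of the 7 genes (log2 of CC-CJ over the other RNA, vertical axis) under 6 ways of processing (horizontal axis), against CC on the left and against AA-CJ on the right, each point 1 gene. All points on the left lie below 0, from -0.58 to -4.35, while on the right most lie above 0, up to 2.76 for Elavl4 with the processed signals, and Brunol4 turns to -0.42 with median centring.

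Other neuronal regulators of the same kinds, listed for their known role but with earlier results of these data known, were measured beside the members. Of 12 other neuronal RNA-binding proteins 7 had a probe and 6 were tested, and cold jet lowered 2 relative to CC. Khdrbs3, a STAR family splicing regulator, fell by 0.70 on the log2 scale (M -0.63 and -0.77, SE 0.0874, limma adjusted p 0.0099). Ptbp2, the neuronal homologue of the splicing repressor Ptbp1, fell by 0.57 (M -0.62 and -0.51, SE 0.0813, adjusted p 0.0178). The list had a median M of -0.34, and the difference from the members was not tested. Of the 6 tested, 5 were well above background in AA-CJ on both arrays, so their signal was not from neurons alone. For Celf2, a relative of Brunol4, M was -0.01 and 0.14, and for Stau2, which transports mRNA in dendrites, -0.20 and -0.24, neither past the threshold.

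Ptbp2 was the only gene of both neuronal lists that passed the threshold between CC-CJ and AA-CJ, higher by 0.66 on both arrays (1.58-fold, SE 0.0813, limma adjusted p 0.0164). The neuronal markers Gap43 and Dcx were higher in CC-CJ than AA-CJ as well (2.03 and 0.87 on the log2 scale). The median of all 10 neuronal markers was 0.07, and 4 of them were below 0. The part of residual neuronal RNA in the value of Ptbp2 was not tested. Ptbp2 was also 2.34-fold higher in CC than in AA-CJ (adjusted p 0.0028). Its share left after cold jet was 43.1% and 44.9%. The 6 members with a defined share kept at most 17.3%, but had been chosen by this share. Ptbp2 was well above background in AA-CJ on both arrays. Its call against CC was lost without replicate 1 of CC (adjusted p 0.101) and without replicate 2 (0.116), and that of Khdrbs3 without replicate 2 (0.129). With median centring the M of Ptbp2 against AA-CJ was -0.17, and with the plain background subtraction the adjusted p (limma) was 0.088. Against CC, plain background subtraction gave an adjusted p of 0.163 for Ptbp2 and 0.125 for Khdrbs3. An offset of 16 gave 0.0533 for Ptbp2 against CC. With a replicate block the adjusted p of Ptbp2 was 0.0663 against CC and 0.0593 against AA-CJ.

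Of 17 other neuronal transcription factors 14 had a probe and 7 were tested, of which 5 were well above background in AA-CJ on both arrays. Myt1l, a zinc finger factor that keeps neuronal identity, was the only one of the 7 that fell past the threshold relative to CC. It was well above background in CC alone, so it entered the test only through the group where it was high. CC was at least 4.36-fold above CC-CJ (M -2.13 and -2.12, limma adjusted p 0.000107). It passed the threshold in all 13 alternative settings that could be fitted, with adjusted p between 1.4e-05 and 0.0139. With processed signals M was -5.46. Apart from the 1 without a filter on dim probes, these settings kept Myt1l through the same group, so they are not independent support. Fezf2, a factor of deep-layer cortical neurons, was 1.63-fold higher in CC than in AA-CJ (log2 0.70, limma adjusted p 0.0294), with M against CC of -0.36 and -0.27. This call held in 7 of 13 alternative settings, and was lost with a replicate block (adjusted p 0.0911), with processed signals (0.0842) and without any 1 of the 4 arrays (0.0647 to 0.0924). For Dlx1 and Dlx5, homeobox factors of inhibitory neurons, M against CC was -0.18 and -0.53, neither past the threshold.

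Broad or glial members of these classes were tested too. None of 12 RNA-binding proteins and none of 12 astrocyte or progenitor transcription factors passed an adjusted p of 0.05 in any of the 3 comparisons after loess (limma). At an unadjusted p under 0.05 there were 2, 4 and 1 of the former, against CC, against AA-CJ and for CC over AA-CJ, and 4, 3 and 3 of the latter, beside 17.0%, 22.6% and 17.8% of all genes. At an adjusted p under 0.05, 2.36% of all genes passed in CC-CJ against CC, 3.13% in CC-CJ against AA-CJ and 2.67% in CC against AA-CJ. The medians of M against CC were -0.03 and 0.03. Their brightest members in CC, Hnrnpc and Id3, had M of 0.06 and 0.39. Nfib, a factor of astrocyte development, had M of 0.80 and 0.30 against AA-CJ, with an adjusted p of 0.065 (limma). Median centring lowered M of the probes used by 0.42 to 0.66 on the 4 arrays, and with it 17 of these 24 genes passed the threshold against CC.

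**Figure D4:**
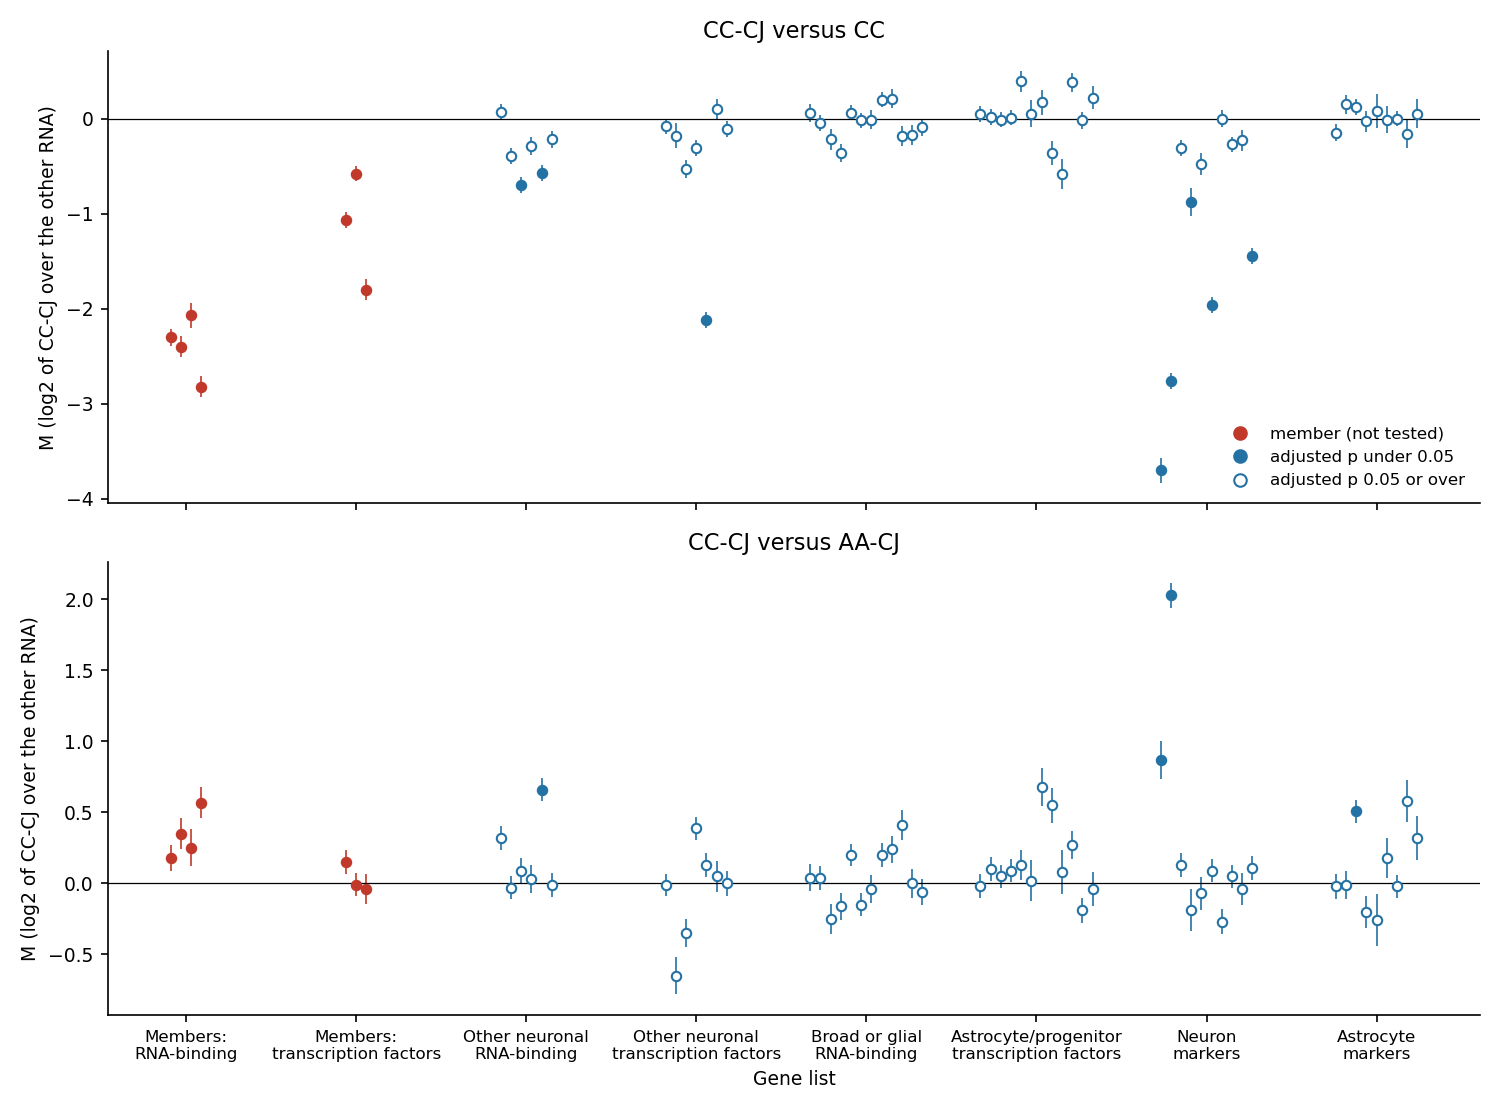
M (log2 of CC-CJ over CC above, over AA-CJ below, vertical axes) of each gene kept, by gene list (horizontal axis), with standard errors from the fit. Red points are the members, which were not tested, filled blue points passed an adjusted p of 0.05 and open points did not. Against CC the members lie from -0.58 to -2.82, among the other regulators Myt1l alone lies below -1 (-2.12), and the broad and glial lists lie around 0.

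The genes most like the members were sought over the 8 channel values. Among 9444 other genes well above background in CC, the 10 with the highest Pearson correlation with the members' mean were Mmp24, Add2, Rgs7, Arhgdig, Tmem145, Snap25, Caly, Myt1l, Eef1a2 and Gad2. Their r was 0.9968 to 0.999, over values that share 4 arrays and differ mainly between CC and the other RNAs. The share left after cold jet was 10.3% for Mmp24, 10.2% for the synaptic marker Snap25 and 15.8% for Gad2, which makes GABA. All 10 lay between 9.28% and 16.9%. These genes were picked by the same channel values from which the share is computed, so nothing is read from its likeness to that of the members.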

How the data were processed

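RNA of CC, CC-CJ and AA-CJ was hybridized to 4 2-colour Agilent whole rat genome arrays on 1 slide. The authors deposited Feature Extraction 9.5.1.1 files with spot intensity on a linear scale, and a table of processed values that match log2 Cy5/Cy3 of the scanner intensities (r 0.925 to 0.973 per array, medians near 0). The authors normalized by OLIN and OSLIN. The files name rn4 for probe positions. Mean signals were corrected by normexp (offset 50) and loess (span 0.3) in R 4.3.3 with limma 3.58.1. Log2 signals per channel come after Aquantile. Control spots and 121 to 179 outlier spots per array were left out. Of 41012 probes, 24865 well above background on all arrays of a group were kept, averaged to 21366 genes. RefSeq named 10835 of the 16321 probes that carry its accessions, and Gene IDs named 2837 others. Each comparison had its coefficient in lmFit with 2 residual degrees of freedom (prior 4.72), and p-values were adjusted by Benjamini-Hochberg over all genes. The number of arrays limits the precision.

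Members and lists were chosen with earlier results of these data known. Named were all members, listed genes past an adjusted p of 0.05 or up to 4 of the brightest, the markers, and the 10 genes most like the members. Alternatives covered background correction, offset, normalization, source of values, filter, block, arrays left out and the share. The limma fit was tested on simulated log2 ratios, and the other steps were not.

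The labels do not say whether same-numbered arrays shared their CC-CJ RNA. The deviations of same-numbered arrays had a correlation of -0.112 over genes. CC-CJ signals correlated at 0.998 for the same number and 0.996 for the other, so pairing stays undecided. The main fit did not pair arrays, while the share subtracted AA-CJ of the array with the same number.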

Additional observations from a re-analysis of the deposited data

How the results depend on the processing

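M of the members against CC kept its sign under every alternative that gave a value, with a spread in size. Their medians (share left, M against CC, M against AA-CJ, CC over AA-CJ on the log2 scale) were 10.3%, -2.68, 0.70 and 2.99 with plain background subtraction, 10.6%, -2.52, 0.29 and 2.79 with an offset of 16, 4.30%, -2.91, 0.41 and 2.90 with median centring, and 4.86%, -3.25, 0.89 and 3.50 with processed signals. They were 6.07%, -2.46, 0.31 and 2.77 with only probes well above background in all channels. The authors' values gave 0.27 against AA-CJ and 2.63 for CC over AA-CJ, and no filter gave -1.52 against CC and 1.76 for CC over AA-CJ. The share was 24.1% without subtracting AA-CJ, 10.9% for members well above background in CC-CJ too, 10.5% with the brightest probe, and 2.47% with CC-CJ of the AA-CJ arrays (chosen after seeing the data). Leaving out 1 array gave a share of 11.8% to 13.5% and medians of -2.31 to -1.87, 0.12 to 0.22 and 2.08 to 2.56.

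Counts past an adjusted p of 0.05 are given for the neuronal lists, the broad or glial lists and all genes. Against AA-CJ (1, 0 and 669) median centring gave 7, 14 and 13242, plain subtraction 0 and 67 (neuronal, all), processed signals 0 and 77, the offset of 16 360 for all genes, the authors' values 3 and 1 in the 2 kinds of list, the strict filter 2 and 1, no filter and the limits of 2 SD each 1 broad or glial gene, and the 2 arrays alone 2, 2 and 1080. Against CC (3, 0 and 505) median centring gave 9, 17 and 14326, plain subtraction 191, processed signals 283 and the strict filter 291 for all genes, and the 2 arrays alone and the limits of 2 SD each 1 broad or glial gene. For CC over AA-CJ (4, 0 and 571) median centring and the authors' values each gave 1 broad or glial gene, processed signals 2 and 249 (neuronal, all), plain subtraction 234 and the strict filter 349. Of calls against AA-CJ, 417 were higher and 252 lower after loess, against 706 and 12536 after median centring, 271 and 89 with the offset of 16, 69 and 8 with processed signals and 63 and 4 with plain subtraction, and against CC the authors' values gave 158 higher and 553 lower, beside 21 and 484. The cause was not tested.

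Leaving out 1 array moved the counts to 0 to 2, 0 to 2 and 129 to 1080 against AA-CJ, to 1 to 4, 0 to 1 and 191 to 733 against CC, and to 2 to 3, 0 to 2 and 345 to 680 for CC over AA-CJ. The 191 came without replicate 2 of CC, when Ptbp2 and Khdrbs3 lost their calls against CC, and the 129 without replicate 1 of AA-CJ, when Ptbp2 lost its call against AA-CJ. The lone array of a pair was then assumed to vary like the others.

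With a replicate block, which leaves 1 residual degree of freedom, the medians of M did not change, and the calls of all genes fell to 165 against AA-CJ, 298 against CC and 285 for CC over AA-CJ, with 0 and 2 in the neuronal lists for the first and the last of these. Crossed pairing, chosen after seeing the data, gave 1553, 874 and 882 calls, 1 to 2 broad or glial calls in each comparison (2, 1 and 1), and 3 neuronal calls against AA-CJ.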
